A study of Mus musculus with 12 samples.

Results

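The genes described here are the ligands, receptors and Smads at the core of transforming growth factor beta (TGF-beta) signaling: Tgfb1, Tgfb2, Tgfb3, Tgfbr1, Tgfbr2, Smad2, Smad3, Smad4 and Smad7. They were chosen by name, 9 genes in all. The arrays held probes under 8 of these names, out of 20466 gene names that could be placed on a single chromosome, and no probe was named Tgfb1. What was measured is the amount of DNA at each gene, not its RNA or protein.

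In liver, TGF-beta restrains hepatocyte growth, induces hepatocyte death and drives the matrix production of fibrosis. The ligands bind the type II receptor, which recruits and phosphorylates the type I receptor. The type I receptor phosphorylates the receptor-regulated Smads, which join the common Smad, enter the nucleus and change transcription, and an inhibitory Smad, itself a target of the pathway, shuts the receptors down. In hepatocellular carcinoma (HCC) the pathway is known both as a brake on early growth and as a promoter of invasion later on.

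Array-based comparative genomic hybridization (aCGH) was performed on 12 liver tumors of Mdr2-KO/FVB mice. These mice lack Mdr2 (Abcb4), the canalicular phospholipid transporter of hepatocytes, and develop chronic liver inflammation followed by HCC. The 6 post-PHx tumors (PHx1M, PHx2F, PHx3M, PHx4M, PHx5M, PHx6F) came from 9-month-old mice that had undergone a 70% partial hepatectomy at the age of 3 or 6 months. The 6 spontaneous tumors (Spon1M, Spon2M, Spon3F, Spon4F, Spon5F, Spon6F) came from untreated mice aged 13 to 14 months. The last letter of a name gives the sex of the mouse, with 4 males and 2 females in the post-PHx group and 2 males and 4 females in the spontaneous group. Each array held 1 tumor, labeled with Cy5, against the non-tumor liver of the same mouse, labeled with Cy3, and dyes were not swapped. Both channels of every array therefore carried the Mdr2 knockout, and treatment and age at tumor collection cannot be told apart between the groups. Each tumor was measured once, so that the spread reported below is the spread between tumors of different mice, or between neighbouring probes of 1 array where so stated.

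The unit is the log2 ratio of tumor DNA over non-tumor liver DNA, centred on the median of the autosomal probes of each array. The 8 genes were represented by 1 to 4 probes each, too few for a precise value in a single tumor. Each gene was therefore given a window value, the mean of its own probes and of 10 flanking probes on each side. The windows held 21 to 24 probes and covered 0.885 to 3.42 Mb. The SD between the probes of a window ranged from 0.101 to 0.573 with a median of 0.169. A window value of at least 0.4 was counted as a gain and one of at most -0.4 as a loss. A gene was said to lie in a called region when at least 50% of its measured probes did, a region being a run of probes with a mean past the same bounds.

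None of the 8 genes was gained or lost in any post-PHx tumor, whereas 5 of them lay in a gained or lost region of 1 or more spontaneous tumors or passed the bound of the window value there. The same was so for 22.8% of all genes in at least 1 spontaneous tumor and for 10.1% in at least 1 post-PHx tumor. Of these 5 genes, 3 passed by window and 4 lay in a region. Among the 96 pairs of gene and tumor, 0 windows were gained and 3 were lost. The losses were those of Tgfb2 in Spon3F, Tgfb3 in Spon5F and Smad2 in Spon6F. All 3 lay close to the bound. Without centring Tgfb2 in Spon3F (-0.38) and Tgfb3 in Spon5F (-0.39) no longer passed it, and with normexp background correction neither Tgfb3 in Spon5F (-0.398) nor Smad2 in Spon6F (-0.39) did. Tgfb2 also fell short with 5 flanking probes (-0.38), Smad2 with 20 (-0.37) and Tgfb3 with the window median (-0.3997). Over all genes, 1.87% of the pairs passed the bound for a gain and 1.01% that for a loss. Region calls placed 2 pairs in a gain (Tgfb3 and Smad3 in Spon1M) and 3 in a loss (Tgfb2 in Spon3F, Tgfb3 in Spon5F, Tgfbr1 in Spon2M), against 1.71% and 0.98% of all pairs. With normexp background correction 5 windows were gains, all in spontaneous tumors. On own probes alone, 1 to 4 per gene, post-PHx tumors passed the bounds at Smad2 in PHx6F with -0.52 and at Smad7 in PHx5M with 0.42. In the post-PHx tumors 2.21% of all pairs were gained windows and 0% lost ones, so that the absence of losses there was shared by the whole array. The shares over all genes were 1.53% for gains and 2.02% for losses in the spontaneous tumors. Called gains held 1.97% of all pairs in the post-PHx and 1.45% in the spontaneous tumors, and called losses 0% and 1.96%.

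**Figure D1:**
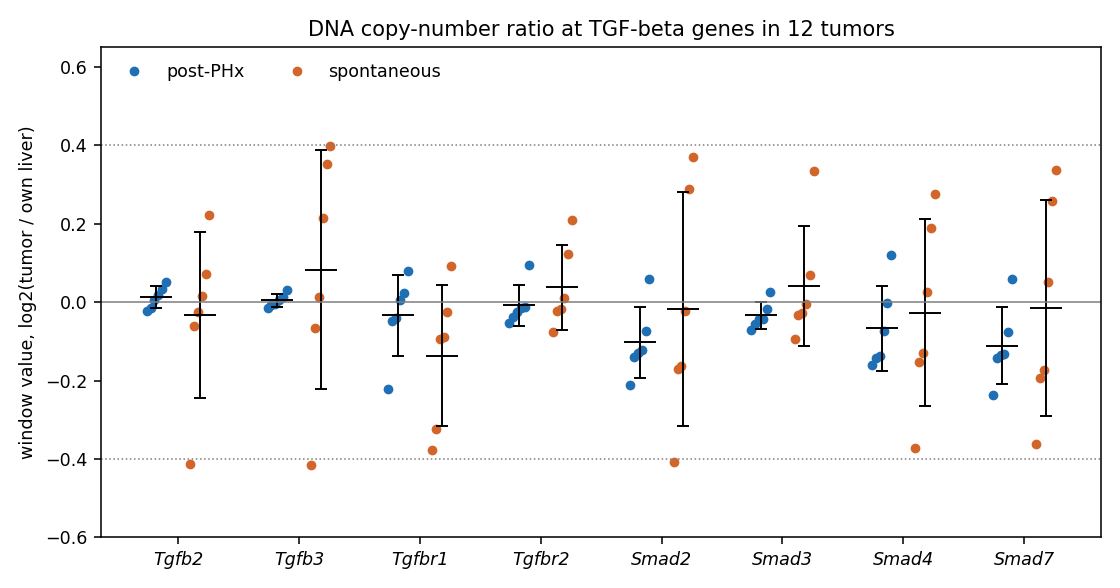
Window values of 8 TGF-beta genes, as log2 ratio of tumor over own non-tumor liver (vertical axis), in 6 post-PHx (blue) and 6 spontaneous (orange) tumors, each dot 1 tumor and dots ordered by value; bars give the mean ± SD and dotted lines the bounds of 0.4 and -0.4. The post-PHx tumors stayed between -0.24 and 0.12, while the spontaneous tumors spread from -0.42 to 0.40.

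At a lower bound of 0.25 the windows past it were again confined to the spontaneous tumors, now with gains as well as losses. None of the 48 pairs of post-PHx tumors reached 0.25 in either direction, against 3.79% of all pairs of gene and post-PHx tumor. In the spontaneous tumors 15 of 48 pairs did, 8 above and 7 below 0, against 12.2% of all pairs. These 15 pairs are not independent, since 8 of them were Smad2, Smad4 or Smad7, which are neighbours on chromosome 18. In 14 of the 15 pairs the median of the whole chromosome had moved past 0.2 in the same direction, and the window lay within 0.15 of it. The exception was Tgfb2 in Spon3F. The arrays of Spon2M and Spon5F were the noisiest, with an SD between neighbouring probes of 0.265 and 0.221 against 0.147 to 0.194 on the other arrays. Without them 11 of 32 spontaneous pairs passed 0.25, against 9.77% of all pairs.

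Of the ligand genes, Tgfb2 was lost in 1 spontaneous tumor and Tgfb3 was in a gain in 1 and in a loss in another. Tgfb2, on chromosome 1, encodes a ligand known for its part in development. Its 4 probes lay at chr1:188333570-188373685 (mouse genome build NCBI36, mm8, as for all positions here), between probes named AK080519 and AK089622. In the post-PHx tumors its window ranged from -0.02 to 0.05 with a median of 0.01. In the spontaneous tumors it was -0.03 in Spon1M, 0.22 in Spon2M, -0.41 in Spon3F, -0.06 in Spon4F, 0.01 in Spon5F and 0.07 in Spon6F. Only Spon3F and Spon2M stood outside the range of the post-PHx tumors by more than 0.05, in opposite directions.

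The loss of Tgfb2 in Spon3F was part of a terminal loss of chromosome 1. The window value was -0.41 ± 0.19 (SD over 24 probes), a fold of 0.751, and the mean of its own 4 probes was -0.46. The called region, chr1:181607453-196871918, held 271 probes with a mean log2 ratio of -0.46 (fold 0.727) and 119 gene names, and it ran to the last probe of the chromosome. In this tumor 3.3% of all genes had a lost window and 2.28% lay in a lost region. The median of chromosome 1 in this tumor was -0.02, so most of the chromosome was near 0. In Spon2M, by contrast, the value of 0.22 was close to the median of 0.28 of the whole chromosome, and all 40 bins of 5 Mb along it were above 0.

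Tgfb3, on chromosome 12, had the widest range of the 8 genes in the spontaneous tumors and the smallest SD in the post-PHx tumors. Its 2 probes lay at chr12:86952922-86958975, between Ttll5 and 1700019E19Rik. The post-PHx tumors ranged from -0.01 to 0.03 with a median of 0.00. The spontaneous tumors measured 0.40 in Spon1M, 0.22 in Spon2M, -0.07 in Spon3F, 0.35 in Spon4F, -0.42 in Spon5F and 0.01 in Spon6F. Spon1M, Spon2M and Spon4F were high, Spon5F was low, Spon3F was slightly below the post-PHx range and Spon6F was inside it.

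These values of Tgfb3 followed long stretches of chromosome 12. In Spon1M the gene lay in a gain of 202 probes at chr12:82999237-92215634 with a mean of 0.42 (fold 1.34), 1 of 6 called regions on the chromosome, whose median was 0.35. Gained regions of Spon1M held 7.4% of all genes. The window of 0.40 itself was just under the bound, at 0.399. In Spon2M and Spon4F all 23 bins of 5 Mb were above 0, with chromosome medians of 0.27 and 0.36, and no region on the chromosome was called. In Spon5F the gene lay in a loss of 802 probes at chr12:59864966-109468692 with a mean of -0.50 (fold 0.705), and its own 2 probes averaged -0.49. Lost regions held 5.55% of all genes in this tumor, and 5.43% had a lost window.

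Tgfb1 encodes the ligand best known for its part in liver fibrosis. Since no probe was named for it, only its surroundings could be measured. By gene order in the RefSeq table of GRCm38.p6 it lies between Exosc5 and Ccdc97, whose probes enclose chr7:25371742-25425553 in the files. A window of 21 probes around this gap had a log2 ratio of 1.16 in PHx3M, a fold of 2.24. It was 0.28 in PHx1M, 0.28 in PHx4M and -0.02 to 0.08 in the other post-PHx tumors. In the spontaneous tumors it was highest in Spon1M with 0.23 and lowest in Spon3F with -0.22. PHx3M thus stood alone, and the other 11 tumors lay between -0.22 and 0.28. The gap was inside a gained region of PHx3M, chr7:17227678-31013605, of 424 probes with a mean of 1.06, and 3.36% of all genes lay in gained regions of that tumor. Of the genes and neighbourhoods described here for the 9 names, this was the only gain in a post-PHx tumor. It is a value of the neighbours, and the copy number of Tgfb1 itself was not measured.

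Of the receptor genes, Tgfbr1 was in a loss in 1 spontaneous tumor and Tgfbr2 was in no gain or loss. Tgfbr1 encodes the type I receptor, the kinase that phosphorylates Smad2 and Smad3. Its 2 probes lay at chr4:47385162-47435043, between Col15a1 and Alg2. In the post-PHx tumors its window was -0.22 in PHx5M and between -0.05 and 0.08 in the other 5. The spontaneous tumors measured -0.32 in Spon1M, -0.38 in Spon2M, -0.09 in Spon3F, -0.03 in Spon4F, 0.09 in Spon5F and -0.10 in Spon6F. Spon1M, Spon2M and PHx5M were low, and 5 of 6 spontaneous tumors were below 0. The mean of the own 2 probes of Tgfbr1 was above 0 in 1 of 6 tumors of each group. It averaged -0.05 in the post-PHx and -0.26 in the spontaneous tumors.

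The low values of Tgfbr1 were shared by its chromosome. The medians of chromosome 4 were -0.21 in Spon1M, -0.38 in Spon2M and -0.23 in PHx5M, and in Spon2M and PHx5M all 32 bins of 5 Mb were below 0. In Spon2M the called loss, chr4:47029388-88864773, held 432 probes with a mean of -0.40 (fold 0.756) and began just before the gene. It no longer held the gene with mode centring, with equal probe weights or at score thresholds of 5, 8 and 10 in place of 6. Such regions held 3.79% of all genes in Spon2M. Most probes before that start were also low, as the plot of called regions shows. The probes of the Tgfbr1 window varied more than those of the other 7 windows in Spon1M, Spon2M and Spon3F, with SDs of 0.491, 0.573 and 0.471. In Spon2M a flanking probe at -0.379 Mb from the first probe of the gene measured 1.75, against the direction of the window. The own 2 probes of Tgfbr1 averaged -0.82 in Spon2M, past the bound that the window did not reach.

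Tgfbr2 encodes the type II receptor, which binds the ligand. Its 2 probes lay at chr9:115938123-116015010, next to Rbms3. Its window ranged from -0.05 to 0.09 in the post-PHx tumors (median -0.02) and from -0.08 to 0.21 in the spontaneous ones (median -0.00), where Spon1M was highest. Tgfbr2 was the only 1 of the 8 genes without a window past 0.25 in any tumor. The mean of its own 2 probes was above 0 in 12 of 12 tumors, at 0.15 ± 0.06 (SD, n = 6) in the post-PHx and 0.23 ± 0.13 (SD, n = 6) in the spontaneous tumors. Of these probes, that at the higher coordinate had a median of 0.37 over the 12 arrays and the other a median of 0.11. On its own probes alone the mean of the spontaneous tumors passed the threshold (adjusted p = 0.024 by limma), which the window did not (0.696). Over all genes, own probes alone called 432 genes higher and 416 lower in the spontaneous tumors, and windows called 0. The flanking probes of Tgfbr2 did not share the shift above 0, and whether it belongs to the gene or to the probes was not tested.

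**Figure D2:**
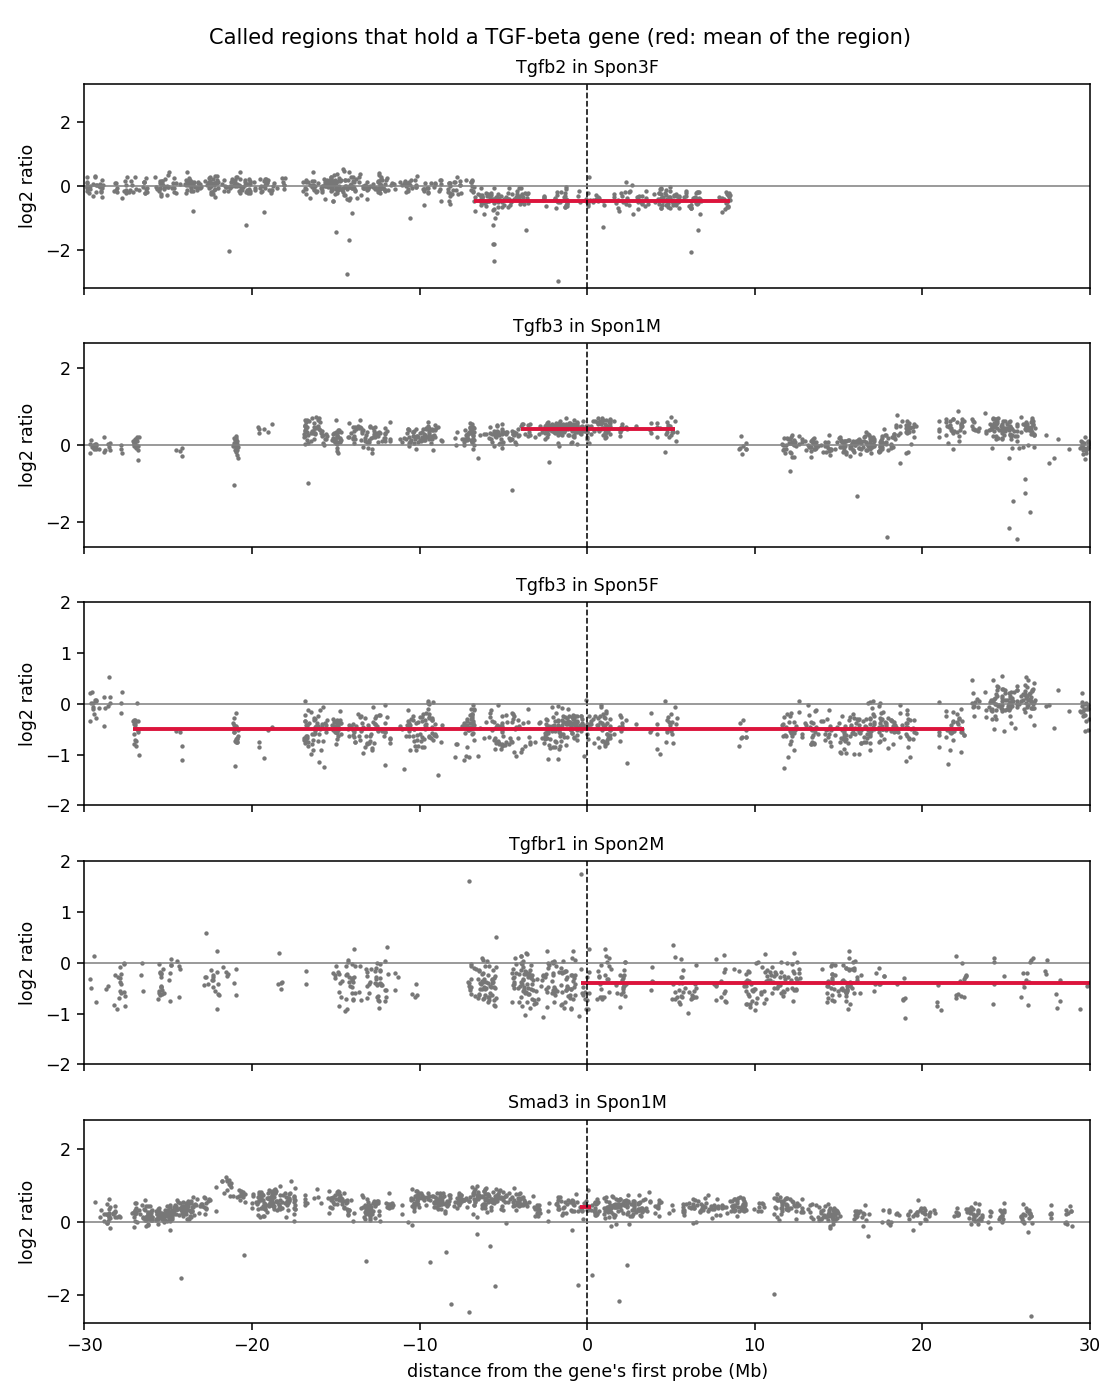
Log2 ratio of tumor over own non-tumor liver of single probes (grey dots) against the distance from the first probe of the gene (dashed line, Mb), in the 5 pairs of gene and spontaneous tumor with a called region; red lines give the region and its mean. The loss around Tgfb2 in Spon3F runs to the end of chromosome 1, the loss around Tgfb3 in Spon5F spans 49.6 Mb, and the ratios around Tgfbr1 in Spon2M are also low before the start of the called region.

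Smad3 was in a gain in 1 spontaneous tumor. It encodes a receptor-regulated Smad that binds DNA directly. Its 2 probes lay at chr9:63491099-63542571, next to Smad6, which encodes another inhibitory Smad. In the post-PHx tumors its window ranged from -0.07 to 0.03 with a median of -0.04. Among the spontaneous tumors it was 0.33 in Spon1M and between -0.09 and 0.07 in the other 5, so that Spon1M alone stood out. The mean of the own 2 probes of Smad3 was above 0 in 0 of 6 post-PHx and 1 of 6 spontaneous tumors. It averaged -0.16 in the post-PHx and -0.06 in the spontaneous tumors. The called region in Spon1M held only 15 probes, chr9:63091576-63733075, with a mean of 0.41 (fold 1.33) and 5 gene names. The window and the own probes were under the bound, and at score thresholds of 8 and 10 the gene was in no called gain. It was 1 of 12 called gains on chromosome 9 in this tumor, the nearest of which ended 0.553 Mb before the gene, and the chromosome median was 0.28.

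Smad2, Smad4 and Smad7 lie within 2.61 Mb of each other on distal chromosome 18, and their values moved as 1 block. Smad4, the common Smad and a tumor suppressor in several human carcinomas, had 2 probes at chr18:73803222-73823768. Smad7, the inhibitory Smad, had 1 probe at chr18:75496283-75496336, which was not used on the array of PHx1M. Smad2, the other receptor-regulated Smad, had 2 probes at chr18:76374394-76413452, between Zbtb7c and AK135611. The windows of Smad2 and Smad7 shared 12 probes, and that of Smad4 shared none with either. Over the 12 tumors Pearson's r was 0.97 between Smad2 and Smad4 and 0.96 between Smad4 and Smad7, without shared probes, and 0.99 between Smad2 and Smad7. These correlations describe neighbours on 1 chromosome.

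All 3 Smad genes of chromosome 18 were slightly low in most post-PHx tumors and spread widely in the spontaneous ones. The Smad2 window was lowest in PHx6F with -0.21, followed by -0.14 in PHx3M, -0.13 in PHx2F, -0.12 in PHx1M, -0.07 in PHx4M and 0.06 in PHx5M. It was -0.02 in Spon1M, 0.29 in Spon2M, -0.16 in Spon3F, 0.37 in Spon4F, -0.17 in Spon5F and -0.41 in Spon6F. PHx5M was the only post-PHx tumor above 0, and the spontaneous tumors went to both sides of the post-PHx range. Smad4 measured from -0.16 to 0.12 in the post-PHx tumors (median -0.11) and from -0.37 in Spon6F to 0.28 in Spon4F (median -0.05). Smad7 measured from -0.24 to 0.06 in the post-PHx tumors (median -0.13) and from -0.36 in Spon6F to 0.34 in Spon4F (median -0.06). For each of the 3 genes Spon6F was the lowest and Spon4F the highest of the 12 tumors.

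None of the 3 genes lay in a called region, although the window of Smad2 in Spon6F passed the bound with -0.41 ± 0.21 (SD over 22 probes). The stretch of chromosome that held it in Spon6F had a mean of -0.33, short of -0.4, and 0.107% of all genes had a lost window in this tumor. The 3 Smad genes lay outside the gains called elsewhere on chromosome 18. Among the post-PHx tumors the nearest called gain ended 51.9 Mb before Smad4 in PHx1M, 36.3 Mb before it in PHx2F, 56.8 Mb before it in PHx3M and 59.0 Mb before it in PHx6F. Within the first 16 Mb of the chromosome the mean log2 ratio was 0.45 in PHx1M, 1.74 in PHx2F, 0.80 in PHx3M and 0.95 in PHx6F. These 4 tumors were therefore high at the proximal end of the chromosome and at or below 0 at the Smad genes. The gains came closest to the Smad genes in Spon1M, where the nearest, chr18:69225524-70109425, had a mean of 0.90 over 17 probes and ended 3.69 Mb before Smad4, 5.39 Mb before Smad7 and 6.27 Mb before Smad2. It was 1 of 9 called regions on the chromosome in this tumor. The chromosome median of Spon1M was 0.26, while its windows were 0.03 at Smad4, 0.05 at Smad7 and -0.02 at Smad2. In Spon6F the proximal end was 0.23 and the chromosome median -0.31. In Spon4F and Spon2M the chromosome was above 0 in all 19 bins of 5 Mb, with medians of 0.32 and 0.22.

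**Figure D3:**
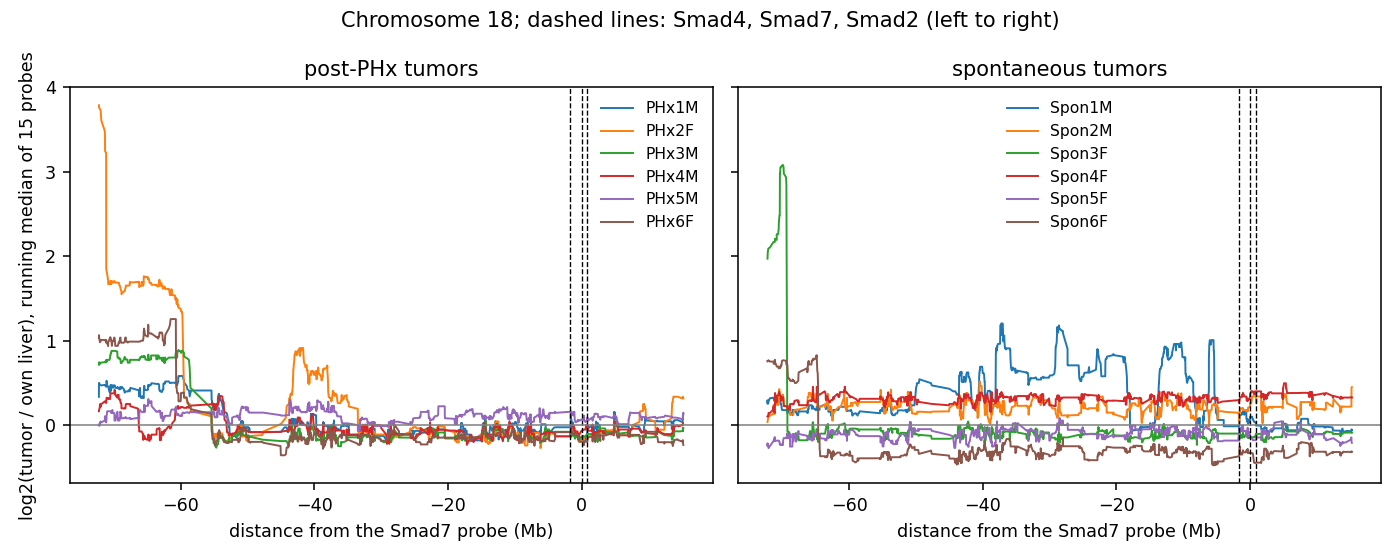
Running median over 15 probes of the log2 ratio of tumor over own non-tumor liver along chromosome 18, against the distance from the Smad7 probe in Mb, 1 line per tumor, post-PHx tumors at the left and spontaneous tumors at the right; dashed lines mark Smad4, Smad7 and Smad2. At the Smad genes Spon4F and Spon2M are above 0 and Spon6F is below, and the gains of Spon1M end a few Mb before Smad4.

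The difference between post-PHx and spontaneous tumors, the comparison the study was designed for, did not pass the threshold at any of the 8 genes. limma tested the window values of all 20466 genes at an adjusted p of 0.05 and called 0% of them higher and 0% lower in post-PHx tumors, 1304 genes having an unadjusted p under 0.05. An exact permutation test per gene and the methods' t-test also called 0 genes after adjustment, with 1482 and 1183 genes at an unadjusted p under 0.05. With all 12 tumors the largest differences were 0.10 higher in post-PHx tumors at Tgfbr1 (95% interval -0.07 to 0.27, adjusted p = 0.979 by limma) and 0.10 lower at Smad7 (post-PHx minus spontaneous -0.10, interval -0.33 to 0.14, adjusted p = 0.983 by limma). At Smad2 the difference was -0.09 (-0.33 to 0.16), at Tgfb3 -0.08 (-0.32 to 0.16) and at Smad3 -0.07 (-0.21 to 0.06). It was -0.05 at Tgfbr2 (-0.15 to 0.06), 0.04 at Tgfb2 (-0.13 to 0.22) and -0.04 at Smad4 (-0.25 to 0.17). Single tumors moved these values and their order. The difference at Tgfb3 was -0.18 without Spon5F, -0.02 without Spon1M, -0.05 without Spon2M and -0.02 without Spon4F. At Smad7 it was -0.17 without Spon6F, -0.04 without Spon2M and -0.03 without Spon4F, and at Smad2 -0.16, -0.02 and -0.0078 without the same tumors. At Tgfbr1 it was 0.05 without Spon2M and 0.06 without Spon1M, and without Spon1M it was -0.02 at Smad3 and -0.01 at Tgfbr2. The sign turned at Tgfb2, with -0.03 without Spon3F against 0.10 without Spon2M, and at Smad4, with 0.02 without Spon4F and 0.00397 without Spon2M against -0.11 without Spon6F. With array weights and all 12 tumors it turned at Smad7 (0.09), Smad2 (0.12), Smad4 (0.14) and Tgfb2 (-0.0095). With sex as a covariate the difference was 0.17 at Tgfbr1, -0.16 at Smad7, -0.14 at Smad2, -0.13 at Tgfb3, -0.09 at Smad4 and 0.02 at Tgfb2. The smallest adjusted p of these was 0.290 by limma, at Tgfbr1. On own probes alone the difference was 0.20 at Tgfbr1, -0.08 at Tgfbr2, -0.07 at Smad4, 0.07 at Tgfb2 and -0.05 at Tgfb3. At Smad4 it was -0.11 with normexp, -0.07 with 20 flanking probes and -0.02 with the window median. Array weights gave -0.03 at Smad3, -0.01 at Tgfbr2 and -0.0073 at Tgfb3. The groups overlapped at all 8 genes, as they did at all but 0.298% of the genes tested. The intervals leave room for differences of up to 0.33 in size, so similar copy number in the groups was not shown.

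Only 1 slide held both groups, with PHx5M, PHx6F, Spon5F and Spon6F. On these 4 arrays alone the difference had the other sign at 7 of the 8 genes, all but Tgfbr2, and reached 0.24 at Smad4 and 0.21 at Smad2 and Tgfb3, where Spon5F or Spon6F or both were low. The other slides held 1 group each.

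**Figure D4:**
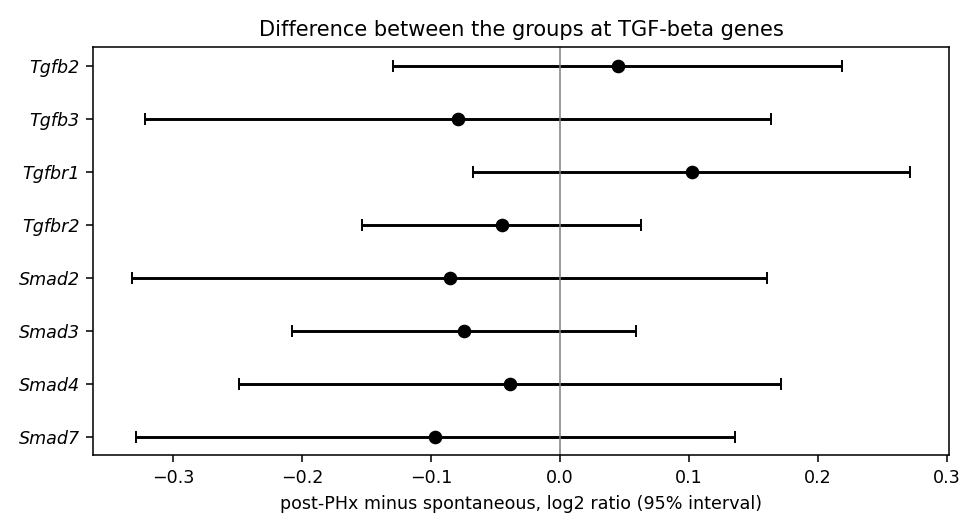
Difference of the mean window value, post-PHx minus spontaneous tumors (log2 ratio, horizontal axis), at the 8 TGF-beta genes with its 95% interval from limma (6 tumors per group). Every interval crosses 0, and those of Tgfb3, Smad2 and Smad7 are the widest.

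Measured against their own non-tumor liver, neither group had a mean past the threshold at any of the 8 genes. Over all genes limma called 0% in either direction in both groups, with an unadjusted p under 0.05 at 1410 genes in the post-PHx and 3385 in the spontaneous tumors. This count of 0 depended on the settings, since array weights gave 1761 genes in the post-PHx and 481 in the spontaneous tumors, and 607 genes were called in the spontaneous tumors without Spon5F. The mean farthest from 0 in the spontaneous tumors was -0.14 ± 0.18 (SD, n = 6) at Tgfbr1 (adjusted p = 0.234 by limma). In the post-PHx tumors it was -0.11 ± 0.10 (SD, n = 6) at Smad7 (adjusted p = 0.918 by limma), with 5 of 6 tumors below 0. The fit took a common variance per gene for both groups. At Smad7 the standard error was 0.076 in each group, although the SD was 0.10 in the post-PHx and 0.28 in the spontaneous tumors. The post-PHx means were thus tested against a spread that included that of the spontaneous tumors.

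The SD over tumors was larger in the spontaneous group at 8 of 8 genes, by a factor of 1.74 at Tgfbr1 to 18.5 at Tgfb3. This was also so at 85.1% of all genes, with a median factor of 2.49, and it was not particular to TGF-beta genes. The median SD of the 8 genes was 0.0715 in the post-PHx and 0.225 in the spontaneous tumors, against 0.0438 and 0.121 over all genes. The highest factor moved with the settings, to 28.3 without PHx1M, 12.4 without Spon5F, 11.0 without centring and 4.96 on own probes alone. Without Spon2M and Spon5F the SD was still larger in the spontaneous group at 8 of 8 genes, by 1.26 to 14.2, and at 74.1% of all genes.

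No pattern across tumors was shared by all TGF-beta genes. Among genes on different chromosomes, Pearson's r over the 12 tumors ranged from -0.60 between Tgfb3 and Tgfbr1 to 0.66 between Tgfb3 and Smad3. Smad3 and Tgfbr2, both on chromosome 9, had an r of 0.78. The gene on another chromosome most like Tgfb2 was Hoxb3 on chromosome 11 (r = 0.98), and 414 genes of other chromosomes exceeded 0.9. For Smad3 it was AK036639 on chromosome 7 (r = 0.97), and 152 genes of other chromosomes exceeded 0.9. For Tgfb3 it was Ccdc67 on chromosome 9 (r = 0.90, with 0 genes over 0.9). For Smad2 it was Psma6 on chromosome 12 (r = 0.91, with 12 genes over 0.9).

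Other genes of the TGF-beta superfamily pathway were measured for comparison from a list of 80 names, of which 74 had probes. The list was chosen with earlier results of these data known. Some of its genes lie close together, such as Bambi and Zeb1, so its pairs are not independent and its shares are descriptive. A window past the bound of 0.4 in either direction was seen in at least 1 tumor at 25 of them (33.8%, against 25.4% of all genes) and in at least 2 tumors at 7 (9.46% against 6.62%). In the post-PHx tumors 20 of 444 pairs were gains and 0 were losses, against 2.21% and 0% of all pairs. In the spontaneous tumors 8 were gains and 12 were losses, against 1.53% and 2.02%. By role, the gene passed the bound at 4 of 11 ligands, 1 of 11 receptors, 2 of 4 other Smads, 8 of 16 extracellular regulators, 7 of 16 intracellular regulators, 0 of 4 nuclear partners and 3 of 12 target genes. None passed the limma threshold in any of the 3 comparisons. The smallest adjusted p of a group difference was 0.681 by limma.

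The 7 genes past the bound in 2 or more tumors lay in few places of the genome. Bambi encodes a pseudoreceptor that blocks TGF-beta signaling, and Zeb1 a repressor of epithelial genes induced by TGF-beta. Both lay at the proximal end of chromosome 18. Bambi measured 3.12 in PHx2F, 0.77 in PHx3M, 1.03 in PHx6F, 2.07 in Spon3F and 0.72 in Spon6F, and from -0.22 to 0.39 in the other tumors. The value of 0.39 was that of PHx1M, where Bambi lay in a called gain although its window was under the bound. Zeb1 measured 0.45 in PHx1M, 1.68 in PHx2F, 0.83 in PHx3M, 0.98 in PHx6F, 2.06 in Spon3F and 0.72 in Spon6F. The gains thus fell in both groups, in tumors where the Smad genes of the same chromosome were at or below 0.

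Bmp7, Tgif2 and Pmepa1 lay on distal chromosome 2. Bmp7 encodes a bone morphogenetic protein that opposes TGF-beta in fibrosis, and Tgif2 and Pmepa1 encode inhibitors of Smad signaling. In PHx4M they measured 0.58, 0.65 and 0.62, and in PHx3M 0.42, 0.45 and 0.32. Tgif2 was also high in Spon1M with 0.48, and Pmepa1, named Tmepai on the array, was low in Spon3F with -0.44. PHx3M and PHx4M were thus high at all 3 genes, apart from the value of Pmepa1 in PHx3M that stayed under the bound. Spon5F was also raised at all 3 genes, under the bound, with 0.31 at Bmp7, 0.30 at Tgif2 and 0.24 at Pmepa1.

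Losses and gains fell together at Bmpr2, which encodes the type II receptor for bone morphogenetic proteins and measured -0.45 in Spon1M and 0.41 in Spon2M. Ski, which encodes a repressor of Smad-dependent transcription, was lost in Spon1M with -0.48 and in Spon3F with -0.44. No called region held either gene in any tumor, so that these 4 calls rest on window values alone. The values of both genes in the post-PHx tumors stayed between -0.16 and 0.13.

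**Figure D5:**
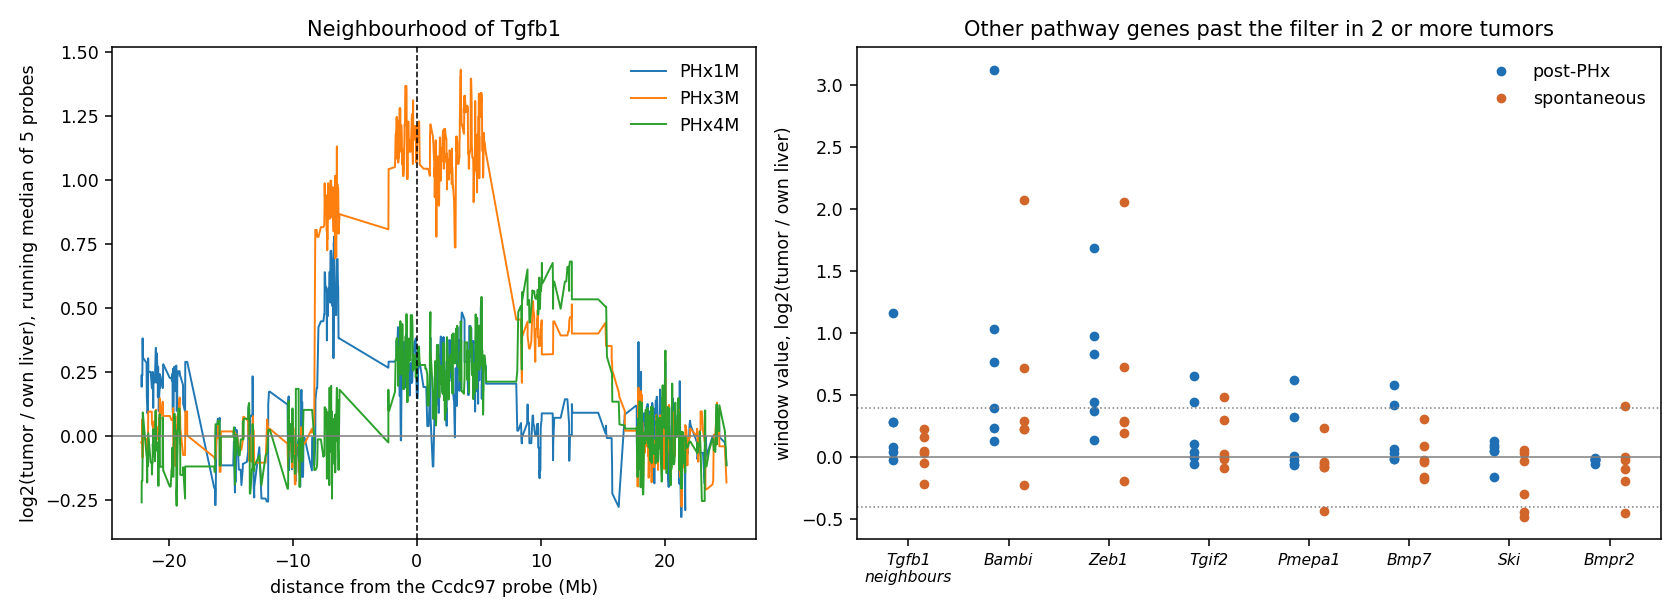
Left, running median over 5 probes of the log2 ratio of tumor over own non-tumor liver around the position of Tgfb1, against the distance from the Ccdc97 probe (Mb), in PHx1M, PHx3M and PHx4M; right, window values of the Tgfb1 neighbourhood and of 7 other pathway genes in post-PHx (blue) and spontaneous (orange) tumors, with dotted lines at 0.4 and -0.4. PHx3M reaches 1.16 around Tgfb1, and Bambi and Zeb1 have the highest values, in tumors of both groups.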

How the data were processed

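On each of the 12 arrays (Agilent Mouse Genome CGH, 43020 spots of 42404 probes besides controls) tumor DNA was in the red and matched liver DNA in the green channel. Per the file headers the authors quantified the spots with Feature Extraction 10.5.1.1 on the genome build mm8. The deposited intensity of each channel had been background-subtracted, detrended and dye-normalized. The deposited log10 ratio of red over green was computed by that software from these intensities, with an error from its error model. The files hold no counts, so the number of tumors and the noise between probes limit precision.

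Ratios were converted to log2. Spots flagged as outliers by the software (108 to 1218 per array) were removed, the remaining spots were averaged by probe, and the autosomal median of an array was subtracted. Windows took 10 flanking probes on each side, and 58 gene names found on several chromosomes were removed. The fit used limma 3.58.1 (R 4.3.3; group means of all 12 arrays, lmFit, eBayes, two-sided, Benjamini-Hochberg adjustment over 20466 genes) and was tested on simulated data. To find regions, the ADM-2 method was imitated with an interval score weighted by the deposited errors (above 6, at least 2 probes, absolute mean of at least 0.4), and tested on simulated regions. Python 3.11.15, numpy 2.4.6, pandas 2.3.3 and numba 0.67.0 did the other steps.

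Sample labels defined the groups. All 9 genes are named in the text, as are pathway genes past 0.4 in at least 2 tumors. The 9 genes and the pathway list were chosen with earlier results of these data known. The alternatives changed the background correction (normexp, offset 50), the centring, the probe filter, the width or average of windows, the bound (0.25 or 0.6), the region score, minimum or weights, the array weights, the test, or the model (with slide, sex, or tumor number), or left out each tumor. Counts without Spon2M and Spon5F and the comparison of SDs were added after the values were seen. RefSeq (GRCm38.p6) gave gene order and synonyms. Probe sequences and the exon or intron position of probes were not analysed here.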

Additional observations from a re-analysis of the deposited data

Results flagged for a closer look

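Among the 16 sets of 6 window values, 1 for each gene and group, a single tumor stood apart from its group. The Tgfbr2 window of PHx2F, 0.095, was higher than that of every other post-PHx tumor by more than the spread of those tumors would give at the 95% level of Dixon's test. Chance marks about 1 in 20 such sets. The value itself was below the bounds of 0.25 and 0.4, and the median of chromosome 9 in PHx2F was 0.01.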

How the results depend on the processing

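The group difference passed the threshold at 0 of the 8 genes under all 28 alternatives, the smallest adjusted p being 0.290 at Tgfbr1 with sex as a covariate, and 544 of 592 gene estimates kept their direction and side of the threshold. The tumor numbers of the labels did not pair the tumors (correlations of same-numbered deviations from -0.17 to 0.55), and with the number as a replicate block 0 genes were called. Without it 0 genes were called as well, in both fits over all 20466 genes. The SD was larger in the spontaneous tumors at 8 of 8 genes under every alternative of the window values, with factors from 1.16 to 28.3. The cause of the changes below was not tested.

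Over all genes, calls against own liver went from 0 to 1761 (array weights) and 540 (own probes only) in the post-PHx tumors. In the spontaneous tumors they went from 0 to 481 (array weights), 307 (mode centring), 558 (normexp), 848 (own probes only) and 674 (slide as a random block), and leaving out a tumor gave 0 to 607, the highest without Spon5F. Of the 8 genes, 1 passed, Tgfbr2 in the spontaneous tumors with own probes only. Gained windows went from 0 to 5 (normexp), 1 (mode centring, 20 flanking probes or window median), 4 (own probes only) and 8 (bound of 0.25). Lost windows went from 3 to 1 (no centring), 6 (own probes only), 7 (bound of 0.25) and 0 (bound of 0.6). Genes in gained regions went from 2 to 6 (normexp), 8 (bound of 0.25), 0 (bound of 0.6) and 1 (scores of 8 and 10), and to 0 without Spon1M, with 0 to 2 over all tumors left out. Genes in lost regions went from 3 to 6 (bound of 0.25), 0 (bound of 0.6) and 1 (without Spon2M and Spon5F).

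The sign turned in 47 estimates, none past the threshold in either fit. For post-PHx minus spontaneous, the slide with both groups gave 0.21 at Smad2, 0.000526 at Smad3, 0.24 at Smad4, 0.19 at Smad7, -0.00802 at Tgfb2, 0.21 at Tgfb3 and -0.0699 at Tgfbr1. Array weights gave 0.12 at Smad2, 0.14 at Smad4, 0.0906 at Smad7 and -0.0095 at Tgfb2. Leaving out a tumor gave -0.11 to 0.0214 at Smad4 and -0.0316 to 0.0954 at Tgfb2.

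For post-PHx tumors against own liver, 20 flanking probes gave -0.000624 at Tgfb2 and 0.0116 at Tgfbr2, and 5 gave -0.00513 at Tgfb3. Mode centring gave 7.08e-06 at Tgfbr2, no centring -0.0015 at Tgfb3, normexp 0.0226 at Tgfbr2 and probes well above background -0.00227 at Tgfb2. Own probes only gave -0.0183 at Tgfb3 and 0.15 at Tgfbr2, slide as a random block -0.00561 at Tgfb3, and the window median -0.0118 at Tgfb2 and -0.000183 at Tgfb3. Leaving out a tumor gave -0.00127 to 0.00782 at Tgfb3, -0.0567 to 0.00341 at Tgfbr1 and -0.0282 to 0.00125 at Tgfbr2.

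For spontaneous tumors against own liver, 20 flanking probes gave 0.00437 at Smad4, array weights -0.00213 at Smad3 and 0.0173 at Tgfb2, and normexp 0.0157 at Smad2 and 0.0346 at Smad7. Own probes only gave -0.0637 at Smad3, 0.0625 at Smad4 and 0.13 at Smad7, and the window median 0.0163 at Smad7. Leaving out a tumor gave -0.0951 to 0.0608 at Smad2, -0.0178 to 0.0679 at Smad3, -0.0876 to 0.0417 at Smad4, -0.0841 to 0.0555 at Smad7 and -0.0831 to 0.044 at Tgfb2.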
